A study of Schizosaccharomyces pombe with 9 samples.

Results

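The array of *SPAC3F10.17*Δ, a fission yeast (*Schizosaccharomyces pombe*) strain without the gene *SPAC3F10.17*, was compared with the WT array over every *S. pombe* gene that had a probe set with 1 gene symbol in the array annotation. This gave 2899 genes from 2917 of the 10928 probe sets. Of these genes 2872 were measured, which means that the signal was above background on at least 1 of the 2 arrays, and 27 were not. Each genotype had 1 array. No spread between replicates was therefore available, no p-value is given, and effects of the culture, the hybridisation and the genotype cannot be told apart.

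The series holds 9 Affymetrix Yeast Genome 2.0 arrays, 1 of WT and 1 of each of 8 deletions that a screen had found to be sensitive to DNA damage, and the arrays address how gene expression differed in these mutants. All cells grew exponentially (OD600 between 0.5 and 1.0) without treatment. The label of the WT strain reads SP286 diploid, with the genotype h+ *ade6-M210 ura4-D18 leu1-32*, whereas the deletions came from a haploid library, so that ploidy, strain background and the loss of the gene cannot be told apart in a ratio to WT. The label of the deletion array gives the lost gene and the growth phase and neither a mating type nor markers. By flow cytometry the study placed *SPAC3F10.17*Δ with *ash2*Δ in its 2C group, next to a 1C group (*SPBC2A9.02*Δ, *SPAC27D7.08c*Δ), a W4C group (*sgf73*Δ, *meu29*Δ) and an S4C group (*sec65*Δ, *pab1*Δ).

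*SPAC3F10.17*, *ltv1* in the RefSeq annotation, is the homolog of budding yeast *LTV1*, whose product helps the small ribosomal subunit to mature and to leave the nucleus. Growing cells spend much of their transcription on ribosomal proteins and on the factors that assemble ribosomes. Fission yeast turns this growth program down and enters sexual differentiation when nutrients run short, under the transcription factor Ste11, and haploid cells of the P and M mating types then exchange pheromones.

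No named probe set reported the transcript of *SPAC3F10.17* itself, so the array could not be checked by the loss of its own gene. The signal of *ura4*+, which *ura4-D18* lacks, was 65.7 in WT and 89.9 in *SPAC3F10.17*Δ, near the background of 38.3 and 38.6 on these arrays. In the other genotypes the targeted transcript was low for *ash2*+, *meu29*+ and *sgf73*+ (39.3, 73.2 and 83.6 on their own arrays), but the array labelled *pab1*Δ and that labelled *sec65*Δ still held 1170 and 2671 units of the gene they are labelled for, against 1922 and 3936 in WT. These 2 arrays are named by their labels here. Between 98.5% and 99.1% of the genes were above background on each of the 9 arrays.

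Transcript levels of most genes were close in *SPAC3F10.17*Δ and WT. The log2 ratio to WT had a median of 0.07 and an SD of 0.45 over the 2872 genes, and 88.4% of the genes were within 1.5-fold. At least 2-fold higher were 36 genes, which is 1.25% of those measured, and at least 2-fold lower were 60 genes, or 2.09%, together 96 genes or 3.34%. The higher genes were mostly weak ones, with a median signal of 234 in WT and 544 in *SPAC3F10.17*Δ, and 9 of the 36 stayed under 200 on both arrays. The lower genes were mostly well expressed in WT, where their median signal was 2253, against 632 in *SPAC3F10.17*Δ. Among the 718 genes with the weakest signals (38.7 to 774) 25 genes were higher and 22 lower with an SD of 0.54, and among the 718 with the strongest (3398 to 25268) 2 were higher and 11 lower with an SD of 0.37. Just inside the thresholds lay *ggt1*+ with a ratio of 2.00 and *ppk18*+ with 0.499, and just outside lay *apn1*+ with 1.98 and *gyp7*+ with 0.506.

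**Figure D1:**
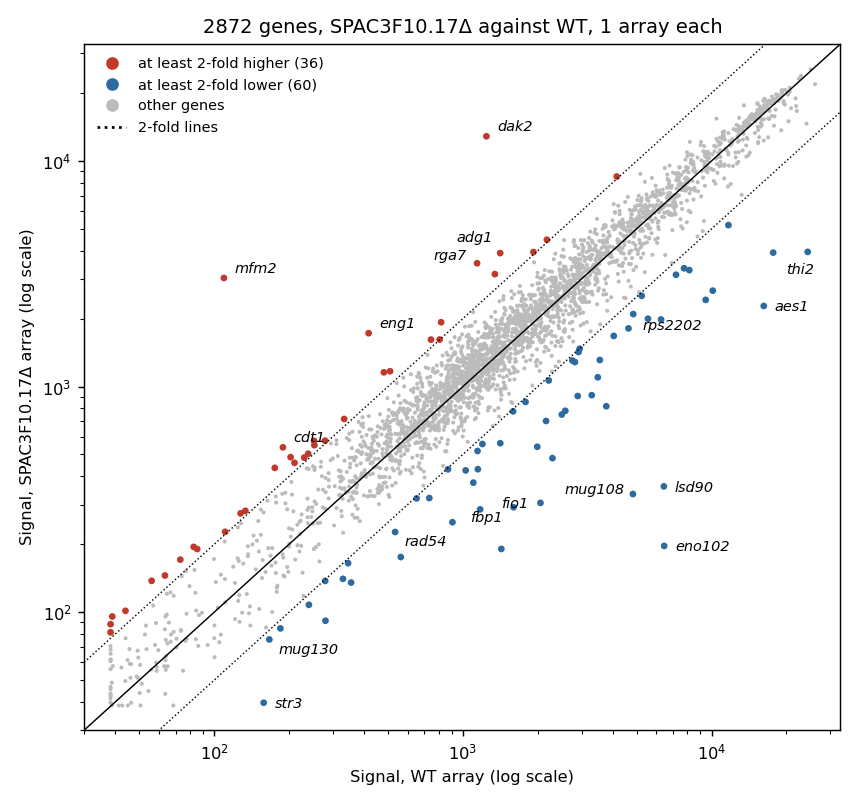
Signal of each of the 2872 measured genes on the WT array (x axis, log scale) and the *SPAC3F10.17*Δ array (y axis, log scale), with signals under background raised to it. Red points are the 36 genes at least 2-fold higher, blue points the 60 at least 2-fold lower, and the dotted lines mark 2-fold; *mfm2*+ and *dak2*+ lie farthest above the diagonal and *eno102*+ farthest below.

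The largest differences were in *mfm2*+ and *eno102*+. *mfm2*+ encodes a precursor of M-factor, the pheromone of M cells. Its signal was 109 in WT and 3029 in *SPAC3F10.17*Δ, 27.7-fold higher, and lay between 156 and 589 on the other 7 arrays. *eno102*+, an enolase gene, fell from 6451 in WT to 197, which is 32.8-fold lower. The next lowest array for this gene was *meu29*Δ at 230, and the remaining 6 lay between 2568 and 11240. *SPAC3F10.17*Δ was thus the highest of all 9 arrays for *mfm2*+ and the lowest for *eno102*+, the former far from every other array and the latter close to *meu29*Δ.

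After *mfm2*+, the genes with the highest ratios were *dak2*+, *eng1*+ and *rga7*+. *dak2*+ encodes a dihydroxyacetone kinase, which brings glycerol carbon into glycolysis, and rose from 1243 to 12865 (10.3-fold). It was as strong in *SPBC2A9.02*Δ, at 14403, and ranged from 993 to 6985 on the other 6 arrays. *eng1*+, the endo-1,3-β-glucanase that dissolves the septum between daughter cells, was at 418 in WT and 1724 in *SPAC3F10.17*Δ (4.13-fold). Of the 7 other deletions 4 were above this level of *eng1*+. *rga7*+ had 1141 units in WT, 3521 in *SPAC3F10.17*Δ and 1076 to 1399 on the other 7 arrays, a ratio to WT of 3.09. No array other than *SPAC3F10.17*Δ departed from WT by much for *rga7*+, in contrast to *dak2*+ and *eng1*+.

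Below *eno102*+, the lowest ratios belonged to *lsd90*+ (6432 in WT, 361 in *SPAC3F10.17*Δ, 17.8-fold lower), *mug108*+ (4828 and 334, 14.5-fold), *mug147*+ (1427 and 191, 7.49-fold) and *aes1*+ (16222 and 2276, 7.13-fold). Other deletions were low for them too. For *lsd90*+ and *mug108*+ 6 of the 7 other deletions were at least 2-fold lower than WT, and for *mug147*+ and *aes1*+ 2 were. The signal was 467 for *lsd90*+ in *meu29*Δ, 140 and 180 for *mug108*+ in *meu29*Δ and *sgf73*Δ, and 2606 for *aes1*+ in *sgf73*Δ. *SPAC27D7.08c*Δ, at 6513 for *lsd90*+ and 6375 for *mug108*+, was above WT.

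**Figure D2:**
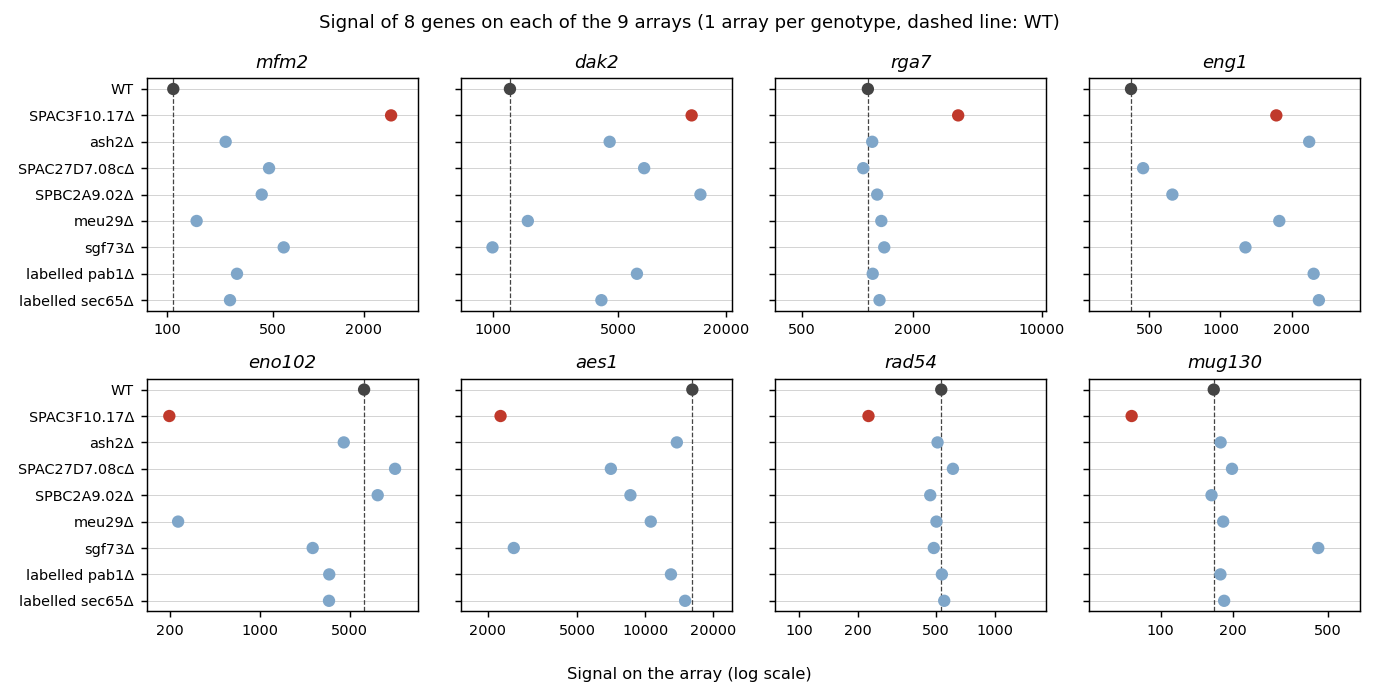
Signal (x axis, log scale) of 8 genes on each of the 9 arrays, 1 array per genotype, with WT in grey and as a dashed line, *SPAC3F10.17*Δ in red and the other 7 deletions in blue. *mfm2*+, *rga7*+, *rad54*+ and *mug130*+ have *SPAC3F10.17*Δ at least 2-fold outside all 8 other arrays, whereas *dak2*+, *eng1*+, *eno102*+ and *aes1*+ have at least 1 other deletion near it or beyond it.

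Because the deleted gene is annotated in ribosome biogenesis, the genes of the ribosome were examined as groups. The genes of ribosomal proteins had little spread. Of 45 measured genes for proteins of the cytosolic small subunit 0 were at least 2-fold higher and 1 was lower (2.22%, near the 2.09% of all genes). Their median log2 ratio was 0.09 with an SD of 0.22. Of 74 genes for the large subunit 0 passed in either direction, against 3.34% of all genes. The large-subunit median was 0.07 with an SD of 0.11, against 0.07 and 0.45 over all genes. When both arrays were centred on their medians the large-subunit median was -0.01 and the small-subunit median 0.02, so that the sign of the large-subunit median did not hold under this scaling.

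The small-subunit gene that passed was *rps2202*+, at 4844 in WT and 2095 in *SPAC3F10.17*Δ, 2.31-fold lower. It lay between 3552 and 6120 on the other 7 arrays, so that *SPAC3F10.17*Δ was the lowest of the 9. A paralog, *rps2201*+, is nearly identical, and how far the probes separate both copies was not tested. A further small-subunit gene, *rps1401*+, was within 2-fold of WT (2960 against 2108) but was the lowest of the 9 arrays too, the other 7 lying between 3086 and 8795. The large-subunit gene *rpl1603*+ was at 4374, against 2792 in WT and 1343 to 2556 elsewhere, which made *SPAC3F10.17*Δ the highest array for it.

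The factors that build ribosomes did not pass 2-fold either. Of 25 small-subunit biogenesis genes, 30 large-subunit biogenesis genes and 14 genes of RNA polymerase I and its factors, which transcribe rRNA, 0 were higher and 0 lower. Of all genes 1.25% were higher and 2.09% lower. At these shares lists of this size hold few such genes, so the 0 counts do not show that the lists were unchanged. The medians of these 3 lists were 0.19, 0.13 and 0.27. The extremes among the small-subunit factors were *utp20*+, a component of the small-subunit processome (2291 in WT, 1681 in *SPAC3F10.17*Δ), and the helicase gene *prp43*+ (988 and 1478). Among the polymerase I genes, the subunit gene *rpa49*+ was at 1567 and 2648, a ratio of 1.69, the largest of that list, while *meu29*Δ had 3314 units of it. *utp20*+, *prp43*+ and *rpa49*+ were named after their values had been seen. Medians over the same 3 lists in the other 7 deletions ran from -0.30 to 0.45, from -0.26 to 0.65 and from -0.16 to 0.55, so that *SPAC3F10.17*Δ lay inside the range of the other deletions. Of 24 translation factor genes and 47 genes of mitochondrial ribosomal proteins 0 passed 2-fold, against 3.34% of all genes. The medians of these lists were 0.19 and 0.12.

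**Figure D3:**
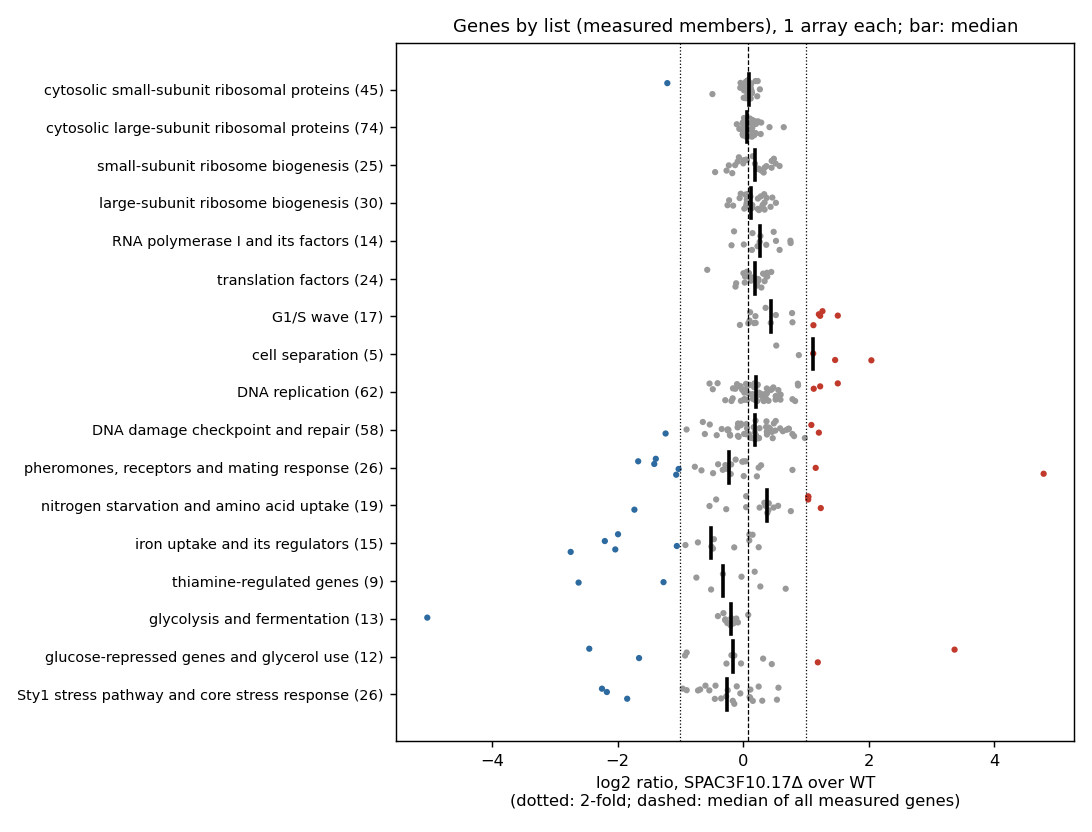
Log2 ratio of *SPAC3F10.17*Δ over WT (x axis) for the measured genes of 17 lists, 1 point per gene, with the number of genes in brackets, a black bar at the median, dotted lines at 2-fold and a dashed line at the median of all genes. Ribosomal protein genes cluster around 0.07 to 0.09, the cell separation and G1/S lists lie to the right, and the iron, thiamine and mating lists have points far to the left.

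Genes of mating and pheromone response went different ways. Of 26 measured, 2 were at least 2-fold higher (*mfm2*+ and *ste6*+) and 5 lower (*ste11*+, *ste4*+, *rgs1*+, *map1*+ and *spk1*+), which is 7.69% and 19.2% against 1.25% and 2.09% of all genes, and the median log2 ratio was -0.22. *ste11*+, the transcription factor gene at the head of sexual differentiation, was at 2896 in WT and 908 in *SPAC3F10.17*Δ (3.19-fold lower). The other 7 arrays held from 1491 units in *ash2*Δ to 7591 in *SPAC27D7.08c*Δ, so that none of them was as low. In a sample of many cells, less transcript in each cell and fewer cells with the transcript cannot be told apart.

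The signalling genes downstream were low as well. *ste4*+, an adaptor of the pheromone MAP kinase cascade, was at 1149 in WT and 430 in *SPAC3F10.17*Δ, *rgs1*+, which damps the pheromone signal, at 355 and 135, and *spk1*+, the MAP kinase, at 652 and 319. The gene of Map1, the MADS-box factor needed for P-specific transcription, was at 345 in WT and 165 in *SPAC3F10.17*Δ. For these 4 genes too *SPAC3F10.17*Δ was the lowest of the 9 arrays, followed each time by *ash2*Δ with 472, 205, 378 and 212 units, while *SPAC27D7.08c*Δ, *SPBC2A9.02*Δ and *sgf73*Δ were the 3 highest and all above WT. With 50 signal units added to both arrays, *map1*+ and *spk1*+ had log2 ratios of -0.88 and -0.93 and were no longer 2-fold lower. In all, 10 of the 26 genes were below each of the 8 other arrays, against 9.05% of all genes.

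*mfm2*+ stood alone among the pheromone genes. The other M-factor genes, *mfm1*+ and *mfm3*+, had 69.9 and 90.6 units in *SPAC3F10.17*Δ against 70.6 and 126 in WT, and neither passed 2-fold. *map2*+, the gene of the P-factor precursor, was at 99.7 in WT and 172 in *SPAC3F10.17*Δ, and *map3*+, the M-factor receptor gene, at 189 and 174. The high signal of *map2*+ on the arrays of *SPAC27D7.08c*Δ (6755), *SPBC2A9.02*Δ (11587) and *sgf73*Δ (12858) had no counterpart in *SPAC3F10.17*Δ. *ste6*+, which encodes a Ras1 exchange factor, was weak throughout, at 85.4 in WT, 190 in *SPAC3F10.17*Δ and up to 839 in *sgf73*Δ. Its log2 ratio was 0.98 under quantile normalization and 0.83 with 50 signal units added, no longer 2-fold.

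Next to *mfm2*+ on chromosome I, named probe sets were at hand for *rpb7*+, 3 genes away with a log2 ratio of 0.08, and *ams1*+, 2 genes away with -0.23. The rise of *mfm2*+ did not extend to them.

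The meiosis genes held members of both directions. *mei2*+, which encodes the RNA-binding protein that commits cells to meiosis, had 2499 units in WT and 752 in *SPAC3F10.17*Δ (3.33-fold lower), and was lower still in *ash2*Δ at 530. Of 101 measured genes of the meiotically upregulated series *mug* and *meu*, 7 were higher (6.93%) and 8 lower (7.92%), against 1.25% and 2.09% of all genes, and their median of 0.08 was close to the 0.07 of all genes. With 50 signal units added to both arrays, *mug177*+, *mug45*+, *mug166*+, *mug106*+ and *mug146*+ had log2 ratios of 0.71, 0.82, 0.88, 0.84 and 0.79 and were no longer 2-fold higher, and *meu18*+ and *mug130*+ had -0.94 and -0.79 and were no longer 2-fold lower. The higher ones were weak transcripts except *mug109*+ (510 in WT, 1169 in *SPAC3F10.17*Δ), for instance *mug150*+ at 175 and 436. *mug150*+ was also above the other 7 arrays, which lay between 165 and 272. The lower ones included *mug143*+ (2582 and 781) and *mug135*+ (908 and 250), and *mug135*+ was as low in *ash2*Δ at 247.

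**Figure D4:**
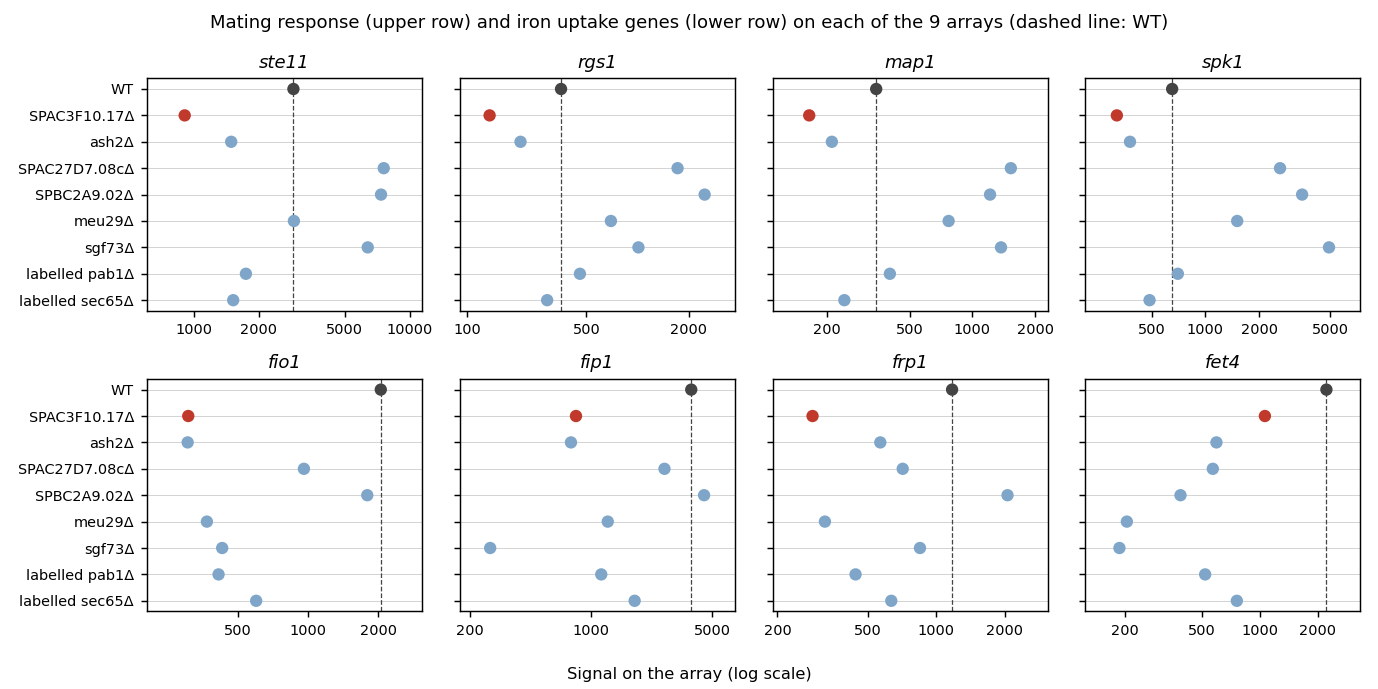
Signal (x axis, log scale) of 4 mating response genes in the upper row and 4 iron uptake genes in the lower row on each of the 9 arrays, 1 array per genotype, with WT in grey and as a dashed line and *SPAC3F10.17*Δ in red. *SPAC3F10.17*Δ is the lowest array for *ste11*+, *rgs1*+, *map1*+, *spk1*+ and *frp1*+, is near *ash2*Δ for *fio1*+ and *fip1*+, and is the highest deletion for *fet4*+, below WT.

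Several iron uptake genes were lower in *SPAC3F10.17*Δ. Of 15 measured genes 0 were higher and 5 lower by at least 2-fold (33.3%, against 2.09% of all genes), 4 had a log2 ratio above 0, and the median was -0.51. *fio1*+ and *fip1*+, the ferroxidase and permease of reductive iron uptake, were at 2051 and 3773 in WT and at 305 and 818 in *SPAC3F10.17*Δ, 6.73-fold and 4.61-fold lower. The ferric reductase gene *frp1*+ was at 1173 and 286, and the siderophore transporter gene *str3*+ at 158 and 39.7, the latter barely above background.

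WT was at the upper end of the arrays for several of these genes. For *fio1*+ and *fet4*+ the WT array was the highest of all 9, and *ash2*Δ had *fio1*+ and *fip1*+ at 303 and 766, as low as *SPAC3F10.17*Δ. *fet4*+, a low-affinity iron transporter gene, was 2.08-fold lower than WT (2215 and 1064) but above each of the 7 other deletions, which lay between 188 and 762. Against the median of those deletions the iron list had a median log2 ratio of -0.22 in *SPAC3F10.17*Δ. The iron-responsive regulator genes *fep1*+ and *php4*+, a GATA-type repressor and a subunit of a CCAAT-binding complex, had 905 and 1750 units in WT against 1005 and 1585. Of 8 genes of copper and zinc homeostasis 0 passed 2-fold, against 3.34% of all genes.

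Thiamine-regulated genes were at lower levels at a few points. Of 9 measured 0 were higher and 2 lower (22.2%, against 2.09% of all genes), with a median of -0.32. *thi2*+, needed for the thiazole part of thiamine, was among the strongest transcripts in WT at 24368 and fell 6.16-fold to 3953. *sgf73*Δ and *meu29*Δ had similar levels of *thi2*+, at 3213 and 4526, and the other 5 lay between 10648 and 22165. *thi9*+, the thiamine transporter gene, was at 4043 in WT and 1677 in *SPAC3F10.17*Δ, below the 2454 to 3895 of the other 7 deletions. *nmt1*+, the pyrimidine-branch gene known for its thiamine-repressed promoter, was nearly level at 21890 and 17515.

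In carbon metabolism some genes passed 2-fold by wide margins. Of 13 measured glycolysis and fermentation genes 0 were higher and 1, *eno102*+, was lower (7.69%, against 2.09% of all genes). Among the 13 genes 12 had a log2 ratio below 0, with a median of -0.20, against 0.07 for all genes. The remaining 12 genes differed little, for example *gpm1*+, phosphoglycerate mutase (22021 in WT, 16659 in *SPAC3F10.17*Δ) and *adh1*+, alcohol dehydrogenase (20878 and 17132), both named after their values had been seen. For *adh1*+ the other 7 arrays lay between 21177 and 22842. *eno101*+, the main enolase gene, had 26070 units in WT and 21892 in *SPAC3F10.17*Δ, so that the enolase transcripts were unequal in their change. All these strong signals lie near the upper end of the arrays, where the response of probes can flatten, and this was not tested.

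Of 12 glucose-repressed and glycerol genes 2 were higher (*dak2*+ and *mal1*+) and 2 lower (*fbp1*+ and *gld1*+). Each count was 16.7% of the list, against 1.25% higher and 2.09% lower among all genes. *fbp1*+, the fructose-1,6-bisphosphatase gene of gluconeogenesis, was at 1598 in WT and 292 in *SPAC3F10.17*Δ (5.48-fold lower). It was also low in *meu29*Δ, *ash2*Δ and on the S4C arrays, between 346 and 463, and highest in *sgf73*Δ at 8066. *gld1*+, glycerol dehydrogenase, was at 6266 and 1983, and *mal1*+, maltase, at 252 and 575. *gld1*+ acts just before the dihydroxyacetone kinases in glycerol use, and its level went the opposite way to that of *dak2*+, while the second kinase gene, *dak1*+, was at 9333 in WT and 11639 in *SPAC3F10.17*Δ. Of 8 hexose transporter genes only *ght4*+ passed (12.5% lower, against 2.09% of all genes). It was at 3553 in WT and 1311 in *SPAC3F10.17*Δ, with *meu29*Δ lower still at 722. The UDP-glucose epimerase gene *gal10*+ fell from 563 to 175, and 0 of 41 respiratory chain genes passed in either direction, against 3.34% of all genes.

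Nitrogen-regulated genes were mostly above WT. Of 19 measured 4 were at least 2-fold higher (*uga1*+, *amt1*+, *put4*+ and *urg3*+) and 1 lower (*mei2*+). These were 21.1% and 5.26%, against 1.25% and 2.09% of all genes. Of the 19 genes 15 had a log2 ratio above 0, and the median was 0.39. The same median in the 7 other deletions ran from -0.77 to 0.50, so that *SPAC3F10.17*Δ lay inside their range. When each gene was set relative to its median level in those 7 deletions instead of WT, the list median was 0.05. All genes had 0.05 too, so that the list as a whole was not set apart from the other deletions. *amt1*+, an ammonium transporter gene, was at 2177 in WT and 4475 in *SPAC3F10.17*Δ, the highest of the 9 arrays, and *put4*+, the proline permease gene, at 1922 and 3947, with 4 other deletions above it. *uga1*+, GABA transaminase, was at 818 and 1928. Except for *uga1*+ (2.36), these ratios were between 2.05 and 2.06, and with both arrays centred on their medians *amt1*+, *put4*+ and *urg3*+ had log2 ratios of 0.96 and were no longer 2-fold higher. Of 42 genes of amino acid metabolism only *gdh2*+ passed (2.38% lower, near the 2.09% of all genes). *gdh2*+, the NAD-dependent glutamate dehydrogenase gene, was at 5550 in WT and 1998 in *SPAC3F10.17*Δ.

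Cell cycle genes of 2 groups were higher in *SPAC3F10.17*Δ than in WT. Of 17 genes of the G1/S wave 5 were at least 2-fold higher (29.4%, against 1.25% of all genes) and 0 lower. Of these 17 genes 16 had a log2 ratio above 0, and the median was 0.44. *cdt1*+, which licenses replication origins, had 189 units in WT and 538 in *SPAC3F10.17*Δ. *cig2*+, the G1/S cyclin gene, had 481 and 1156, and *cdc22*+, the large subunit of ribonucleotide reductase, 1345 and 3151. *yox1*+, which encodes a corepressor of this wave, was at 253 and 550, above all other arrays, and *mik1*+, an inhibitor of mitotic entry, was at background in WT and at 88.4 in *SPAC3F10.17*Δ, so that its ratio of 2.31 rests on where the background is set. With the background at the 99th percentile the log2 ratio of *mik1*+ was 0.53. With 50 signal units added it was 0.83, and that of *yox1*+ was 0.99, so that neither was 2-fold higher.

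All 5 genes of cell separation were above WT. *eng1*+, *adg1*+ and *adg2*+ passed 2-fold (60% higher, against 1.25% of all genes). *adg3*+ and *mid2*+ had ratios of 1.85 and 1.44, and the median log2 ratio of the 5 genes was 1.12. The cell-surface protein genes *adg1*+ and *adg2*+ were at 1412 and 744 in WT and at 3904 and 1614 in *SPAC3F10.17*Δ. These 2 groups were not set apart from the other deletions. For *cdt1*+ and *cdc22*+ the other 7 arrays lay between 324 and 661 and between 2175 and 4500, all above WT, and against the median of those arrays the G1/S list had a median log2 ratio of 0.05 and the cell separation list of -0.04. Every ratio to WT shares the one WT array. Of 19 genes of the mitotic wave only *slp1*+ was higher (5.26%, against 1.25% of all genes) and 0 were lower. *slp1*+, the activator of the anaphase-promoting complex, was at 333 in WT and 718 in *SPAC3F10.17*Δ.

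The mutant was selected for sensitivity to DNA damage, and genes of DNA replication and repair were counted too. Of 62 replication genes 3 were higher (*cdt1*+, *cdc22*+ and *cdm1*+, a subunit of DNA polymerase δ) and 0 lower, with a median of 0.21. The higher ones were 4.84% of this list, against 1.25% of all genes. *cdm1*+ had log2 ratios of 0.99 under quantile normalization and 0.97 with 50 signal units added, no longer 2-fold higher. Of 58 checkpoint and repair genes 2 were higher, *mik1*+ and the 3-methyladenine glycosylase gene *mag2*+, both at background in WT, and 1 was lower. These were 3.45% and 1.72%, against 1.25% and 2.09% of all genes. With the background at the 99th percentile their log2 ratios were 0.53 and 0.41, and with 50 signal units added 0.83 and 0.62, which left 0 repair genes higher. The lower gene was *rad54*+, a motor protein of homologous recombination, at 534 in WT and 227 in *SPAC3F10.17*Δ. The other 7 arrays held 469 to 612 units of *rad54*+, close to WT, so that *SPAC3F10.17*Δ was 2.07-fold below the nearest of them. Near *rad54*+ on chromosome I, *atm1*+ and *mug182*+, both 2 genes away, had log2 ratios of -1.06 and -0.59. The neighbours *taf12*+, *zpr1*+ and *spc34*+ had 0.43, 0.01 and 0.11. Of 11 histone genes 0 passed in either direction, against 3.34% of all genes. Of the 17 measured genes that the study itself tabulated from these arrays 6 were higher (35.3%, against 1.25% of all genes) and 0 lower. Since that table was chosen on these arrays, it is no independent evidence of direction.

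Stress genes were mostly below WT. Of 26 measured genes of the Sty1 stress pathway and the core stress response 0 were higher and 3 lower (11.5%, against 2.09% of all genes). Of these 26 genes 18 had a log2 ratio below 0, and the median was -0.26. *pyp2*+, a phosphatase gene that turns Sty1 off, was at 2292 in WT and 482 in *SPAC3F10.17*Δ, the small heat shock protein gene *hsp16*+ at 17699 and 3924, and *ish1*+ at 3299 and 916. None of these 3 was lowest in *SPAC3F10.17*Δ, since *sgf73*Δ had 225 units of *pyp2*+, 3009 of *hsp16*+ and 719 of *ish1*+. For *pyp2*+ and *hsp16*+ the WT array was the highest of all 9. Of the 7 other deletions 6, 5 and 2 were at least 2-fold lower than WT for *pyp2*+, *hsp16*+ and *ish1*+. The median of the stress list ran from -0.83 to 0.02 in those deletions, so that *SPAC3F10.17*Δ lay inside their range. *hri1*+, a kinase gene of translation initiation factor eIF2α, fell from 1991 to 541, and *ssa1*+, an Hsp70 gene, from 1145 to 518. Of 20 oxidative stress genes only the glutathione S-transferase gene *gst1*+ passed (5% higher, against 1.25% of all genes). It was at 203 in WT, 487 in *SPAC3F10.17*Δ and between 105 and 334 elsewhere, so that *SPAC3F10.17*Δ was the highest of the 9 arrays.

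Other lists had few or no genes past this threshold. Of 24 proteasome, 29 sterol and heme, 10 purine synthesis, 8 citrate cycle and 9 flocculation genes 0 passed 2-fold, against 3.34% of all genes. At that share lists of this size hold few such genes, so the 0 counts do not show that the lists were unchanged. The citrate cycle list had a median log2 ratio of -0.21 with 6 of 8 genes below 0, and the flocculation list a median of 0.25. Of 22 cell wall synthase and glucanase genes only *bgl2*+ passed (4.55% lower, against 2.09% of all genes), falling from 8140 to 3283. Of the remaining lower genes *pas1*+, a cyclin gene, was at 10115 in WT and 2662 in *SPAC3F10.17*Δ, below the 3732 to 10315 of the other 7 arrays. *clp1*+, which encodes a Cdc14-family phosphatase, was weak but the highest of the 9 arrays, at 63.3 in WT and 145 in *SPAC3F10.17*Δ.

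The 8 other arrays gave a second view that does not rest on WT alone. Of 2884 genes above background on at least 1 of the 9 arrays, 2 (0.0693%) were at least 2-fold above all 8 other arrays, *mfm2*+ by 5.14-fold and *rga7*+ by 2.52-fold. A further 2 (0.0693%) were at least 2-fold below all of them, *mug130*+ by 2.15-fold and *rad54*+ by 2.07-fold. After these came *swi2*+ (1.69-fold above the next array), *cid12*+ (1.66), *clp1*+ (1.64), *mug150*+ (1.60) and *nab3*+ (1.57), and on the low side *rps2202*+ (1.70-fold below), *ste11*+ (1.64), *ubp11*+ and *rgs1*+ (both 1.52). *swi2*+ acts in mating-type switching, *nab3*+ encodes an RNA-binding protein and *ubp11*+ a ubiquitin protease. With any margin, *SPAC3F10.17*Δ was above all 8 other arrays for 583 genes (20.2%) and below all for 261 (9.05%). The ribosomal protein lists had 18 of 45 and 37 of 74 such genes above all others, and the glycolysis list had 7 of 13 below all others, in each case by less than 2-fold. The median log2 signal over genes was higher on this array, at 10.58, than on the 8 others (10.48 to 10.54). With each array centred on its median, a setting added after the data had been seen, 370 genes (12.8%) were above all others and 426 (14.8%) below, and the ribosomal protein lists had 6 of 45 and 12 of 74 above, so that most of these ribosomal protein genes did not keep their place. The glycolysis list then had 9 of 13 below all others.

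With the median of the 7 other deletions in place of WT, 13 of 2884 genes were at least 2-fold higher (0.451%) and 40 lower (1.39%). *mfm2*+ (10.5-fold), *gut2*+ (2.94), *dak2*+ (2.87), *rga7*+ (2.75) and *inv1*+ (2.73) had the highest ratios, and *eno102*+ (0.0569), *rgs1*+ (0.194), *spk1*+ (0.212), *map1*+ (0.214) and *aes1*+ (0.215) the lowest. *gut2*+, mitochondrial glycerol-3-phosphate dehydrogenase, and *inv1*+, invertase, were near or below their WT level in *SPAC3F10.17*Δ, at 1667 and 4623 units against 2005 and 8785, and lower in most of the other deletions. The ratios of *fbp1*+ and *ght4*+, both past 2-fold against WT, were 0.630 and 0.988 against the other deletions. For both genes WT lay among the deletions, below *sgf73*Δ, *SPAC27D7.08c*Δ and *SPBC2A9.02*Δ and above the rest. *SPAC3F10.17*Δ was the lowest array for *fbp1*+, at 292 units against 346 in *meu29*Δ, the next.

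Around the deleted gene itself, which lies on chromosome I, 10 of the 16 nearest coding genes, 8 on each side, had a named probe set. *mug130*+, 5 genes away, was the 1 gene past 2-fold among them, at 167 in WT and 75.7 in *SPAC3F10.17*Δ, with 163 to 455 units on the other 7 arrays. The log2 ratios of the other 9 lay between -0.29 and 0.38, and the adjacent gene *rpl4102*+, of the large ribosomal subunit, had -0.06. With 50 signal units added to both arrays the log2 ratio of *mug130*+ was -0.79, under 2-fold.

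Genes near chromosome ends made up a part of the lower set. Among the outermost 50 coding genes of each of the 6 chromosome ends, a window set after the data had been seen, 86 were measured, of which 3 were higher (3.49%) and 9 lower (10.5%), against 1.25% and 2.09% of all genes. The left end of chromosome II held 5 of these lower genes among 11 measured, *eno102*+, *aes1*+, *mug14*+, *ght4*+ and *frp1*+, and 1 higher gene, *mal1*+. *dak2*+ (10.3-fold higher) and *str3*+ (3.99-fold lower) lay within the same window at the left end of chromosome I, so that the ends held changes in both directions.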

How the data were processed

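Total RNA (RNeasy Mini) was labelled as biotinylated cRNA (3' IVT Express) and hybridised to 9 Affymetrix Yeast Genome 2.0 arrays, 1 per genotype. The log2 signals were deposited by the authors as normalized values of single arrays. MAS5 is listed in the submitters' processing notes without its role, no source used here gives the normalization method, and no further normalization was applied.

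The array carried 10928 probe sets, of which 213 are controls, 5518 have 1 gene symbol, 20 have several and 5177 have none. Names were updated through the RefSeq assembly ASM294v3, which served for names and gene order only, since the build of the array design is unknown. For 14 genes with more than 1 probe set the most specific type and then the strongest signal decided, and 3 of the chosen probe sets may detect several genes. Background on an array was set at the 95th percentile of its signals for 2601 *S. cerevisiae* probe sets (36.1 to 40.1 units), and weaker signals were raised to that level. Ratios past 2-fold in either direction were counted, with no test. The number of arrays limits the precision.

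The genes named were the 20 highest and 20 lowest ratios, the 10 farthest above and below the other 8 arrays, list members past 2-fold, all members of lists of up to 12 genes, the neighbours of *SPAC3F10.17*, the genes tabulated by the study and the strain markers. Others were named after their values had been seen (*ppk18*+, *ggt1*+, *apn1*+, *gyp7*+, *eno101*+, *rpb7*+, *ams1*+, *atm1*+, *mug182*+, *taf12*+, *zpr1*+, *spc34*+, *fep1*+, *php4*+, *mfm1*+, *map2*+, *gpm1*+, *adh1*+, *utp20*+, *prp43*+ and *rpa49*+). The genes, lists and rules were chosen with earlier results of these data known, and the median of the other 7 deletions, the grouping by signal and the chromosome ends were added afterwards. The alternatives tried were median scaling, quantile normalization, no floor, signal above background on both arrays, background at the 99th percentile, 50 units added to each signal, a threshold of 3-fold, and averaged probe sets. The counting was tested on simulated data. Python 3.11.15, numpy 2.4.6, pandas 2.3.3 and matplotlib 3.10.9 were used.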

Additional observations from a re-analysis of the deposited data

Results flagged for a closer look

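Among the 47 reporter control probe sets, which the comparison does not use, 1 had a signal of 6910 in *SPAC3F10.17*Δ against 20.8 in WT, and it lay between 4632 and 13657 in the other 7 deletions. The next had 74.4 in *SPAC3F10.17*Δ against 33.7 in WT and 25.7 to 31.5 in the other 7 deletions. No source used here names the targets of these probes. Of the 5177 probe sets without a gene name 2204 were above background, and 58 were at least 2-fold higher in *SPAC3F10.17*Δ than in WT and 101 lower, with ratios between 0.0191 and 49.9. Since each genotype had 1 array, there were no replicates against which to set an array.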

How the results depend on the processing

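Of the 187 named genes none past 2-fold turned direction under the alternatives, and the direction of the other genes was not checked. Under median scaling 5 named genes with log2 ratios under 0.07 and the large-subunit ribosomal protein median turned below 0. The 36 higher genes were 18 with the pseudocount of 50 and 4 at 3-fold, and lay between 27 and 39 under the other 6 alternatives; the 60 lower genes were 26 at 3-fold and lay between 50 and 69 otherwise. Under median scaling 29 of the 36 and all 60 were shared. The 2 genes above all 8 other arrays were 1 at 3-fold, and the 2 below were 0 at 3-fold and 0 with the pseudocount. By any amount, and with median scaling added after the data had been seen, the counts above and below all others went from 583 and 261 to 370 and 426 for all genes, from 18 and 2 to 6 and 7 for small-subunit and from 37 and 0 to 12 and 5 for large-subunit ribosomal protein genes. Of 187 named genes 16 lost the 2-fold call with the pseudocount, 4 under median scaling, 4 with the 99th percentile, 3 under quantile normalization and 0 with no floor or the mean of all probe sets. The median of the genes the study tabulated was 0.53 with the 99th percentile, against 0.63. With background required on both arrays *mik1*+ and *mag2*+ were not measured. No array could be left out, with 1 per genotype. No paired analysis was possible because each genotype had 1 array, all with the replicate number 1. Weak signals near background limit the ratios of low genes.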
